A study of Mus musculus with 24 samples.

Results

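The 6 CXC chemokines Cxcl1, Cxcl2, Cxcl9, Cxcl10, Cxcl13 and Cxcl16 were followed through CD11b-sorted brain cells of adult male mice. They were taken by symbol from a table of 55487 genes, and all 6 were among the 17139 genes that passed the filter on low counts and were tested. LPS-treated MIA offspring, LPS-treated control offspring, saline-treated MIA offspring and saline-treated control offspring were sampled in striatum and frontal cortex, which gives 8 groups of 3 libraries. MIA offspring came from dams subjected to maternal immune activation, and the agent given to the dams and the mouse strain are not given in the sources used here. Mice were 8 to 10 weeks old. Lipopolysaccharide (LPS), a bacterial cell wall component sensed by Tlr4, was injected into the peritoneum at 4500 endotoxin units per gram, and cells were collected 18 h later. Cells came from perfused brains without meninges and were enriched on anti-CD11b beads, which bind microglia and also other myeloid cells. MIA striatum LPS replicate 3 is marked as excluded by the submitters and was set aside, so that group holds 2 libraries and 23 libraries enter the fit.

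CXC chemokines are small secreted proteins that steer leukocytes through G protein-coupled receptors. Cxcl1 and Cxcl2 attract neutrophils through Cxcr2 and are classical targets of NF-kB. Cxcl9 and Cxcl10 are induced by interferons and attract activated T cells and NK cells through Cxcr3. Cxcl13 draws B cells and follicular helper T cells through Cxcr5. Cxcl16, unlike the others, is made as a transmembrane protein that is shed by proteases, and its receptor is Cxcr6. In the brain, microglia, astrocytes and endothelial cells can all make CXC chemokines during inflammation.

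The members lie on 2 chromosomes in the GENCODE M21 annotation of GRCm38, whose versioned identifiers match those of all 6 members in the table. Cxcl1 (ENSMUSG00000029380.11) spans bases 90891241 to 90893115 and Cxcl2 (ENSMUSG00000058427.10) bases 90903871 to 90905938 of chromosome 5, both on the plus strand. Further along chromosome 5, Cxcl9 (ENSMUSG00000029417.9) spans 92321347 to 92328079 and Cxcl10 (ENSMUSG00000034855.13) spans 92346638 to 92348889, both on the minus strand. Cxcl13 (ENSMUSG00000023078.6) spans 95956951 to 95961068 of chromosome 5 on the plus strand. Cxcl16 (ENSMUSG00000018920.11) spans 70453983 to 70459984 of chromosome 11 on the minus strand.

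The 250 bases upstream of the start are shown for the 2 neighbouring pairs, because the members of each pair share a receptor and lie close together. They are RefSeq promoters of build GRCm38.p6, written from 5′ to 3′ on the gene's strand, and capitals mark matches to an NF-kB motif (GGGA, any pair of bases, TTCC) or an interferon-stimulated response element (ISRE: GAAA, any pair of bases, GAAA), each searched on both strands. RefSeq promoters were held for 5 of the 6 members, all but Cxcl16. Positions in them are counted from the RefSeq start, which lies 4 bases downstream of the GENCODE start given above for Cxcl1, 28 bases downstream of it for Cxcl2, and at it for Cxcl9 and Cxcl10.
Cxcl1 (chr5:90890995-90891244, plus strand): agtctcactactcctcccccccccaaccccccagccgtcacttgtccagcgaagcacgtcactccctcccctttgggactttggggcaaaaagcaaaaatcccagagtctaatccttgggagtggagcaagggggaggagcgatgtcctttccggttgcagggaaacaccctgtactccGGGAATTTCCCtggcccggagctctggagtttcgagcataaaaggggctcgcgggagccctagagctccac
Cxcl2 (chr5:90903649-90903898, plus strand): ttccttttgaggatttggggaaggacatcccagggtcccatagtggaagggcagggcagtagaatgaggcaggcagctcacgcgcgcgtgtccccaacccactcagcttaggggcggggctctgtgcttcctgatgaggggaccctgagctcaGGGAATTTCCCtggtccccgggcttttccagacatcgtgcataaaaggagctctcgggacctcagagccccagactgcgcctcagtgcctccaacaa
Cxcl9 (chr5:92328080-92328329, minus strand): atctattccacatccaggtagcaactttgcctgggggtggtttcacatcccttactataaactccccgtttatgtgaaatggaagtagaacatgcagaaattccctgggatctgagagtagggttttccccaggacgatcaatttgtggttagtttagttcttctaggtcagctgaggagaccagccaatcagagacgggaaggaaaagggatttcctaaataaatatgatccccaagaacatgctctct
Cxcl10 (chr5:92348890-92349139, minus strand): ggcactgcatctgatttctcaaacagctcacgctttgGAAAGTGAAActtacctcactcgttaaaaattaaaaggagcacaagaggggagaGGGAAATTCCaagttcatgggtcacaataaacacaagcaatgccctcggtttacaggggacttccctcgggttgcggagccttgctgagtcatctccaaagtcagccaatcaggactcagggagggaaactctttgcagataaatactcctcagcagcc
Cxcl1 and Cxcl2 each held the NF-kB letters GGGAATTTCC, starting 71 and 97 bases upstream of the RefSeq start, with an overlapping match on the other strand. The longest run the promoters of Cxcl1 and Cxcl2 shared was 14 bases, GGGAATTTCCCTGG, and it contains this match. Cxcl10 held the NF-kB letters GGGAAATTCC starting 159 bases upstream and the ISRE letters GAAAGTGAAA starting 213 bases upstream. Neither motif was found in the windows of Cxcl9 and Cxcl13, and a GAS motif (TTCNNNGAA) was in none of the 5. Of all 32851 promoters of the same length, 1.21% held the NF-kB letters, 2.98% the ISRE letters and 7.02% the GAS letters. The letters TATAAA of a TATA motif started 195 bases upstream in Cxcl9 and 46 bases upstream in Cxcl13, and 12.4% of all promoters held them. These matches describe letters and not binding.

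Total counts per library ran from 19453300 to 29480500. Levels are given as CPM, the count relative to the TMM-scaled library total, in the order of replicates 1, 2 and 3. All 10 microglial markers were present in every group, and their summed level was 29100 to 40600 CPM in LPS libraries and 45000 to 62300 CPM in saline libraries. After LPS, 5 of 10 were called lower in MIA striatum and 7 in control striatum, where 10.2% and 20.9% of all genes were called in either direction. In cortex 7 were called lower in MIA offspring and 8 in controls, where 11.9% and 18.2% of all genes were called in either direction. Among LPS libraries, MIA cortex LPS replicate 3, control cortex LPS replicate 1 and control striatum LPS replicate 1 stood apart from their groups. MIA cortex LPS replicate 3 had a summed level of 6 neuronal markers of 243 CPM, against 26.2 and 21.6 CPM in replicates 1 and 2, and of 5 oligodendrocyte markers of 1430 CPM, against 208 and 231 CPM. Control cortex LPS replicate 1 had the highest level of its group for all 6 members, and a summed level of 6 astrocyte markers of 725 CPM, against 288 and 367 CPM. Control striatum LPS replicate 1 had a summed astrocyte marker level of 881 CPM, against 191 and 313 CPM, and the highest level of its group for Cxcl1, Cxcl2, Cxcl13 and Cxcl16. Without it, 5 members were still called for LPS in control striatum, 0 between MIA and control striatum after LPS, and 0 for the difference of the LPS effects. Saline libraries varied too. Oligodendrocyte markers summed to 5310, 3960 and 1090 CPM in control striatum and to 2410, 472 and 1190 CPM in MIA striatum. Endothelial markers summed to 1870, 1550 and 789 CPM in control striatum, and neuronal markers to 39.8, 40.3 and 105 CPM in MIA cortex. In bulk samples, fewer cells of a type and less RNA per cell cannot be told apart.

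All 6 CXC chemokines had log2 fold changes above 0 after LPS in all 4 comparisons. The rise was called for all 6 in control cortex, 5 in control striatum and 3 in each region of MIA offspring. The difference of the LPS effects between MIA and control offspring was called for no member, so these counts do not show a lost response. At an adjusted p under 0.05, 6 of 6 members were higher after LPS in control cortex, where 10.9% of all genes tested were called higher, and 5 of 6 in control striatum, where 12.7% were. In MIA offspring, 3 of 6 members were called higher in striatum, where 6.93% of genes were, and 3 of 6 in cortex, where 7.05% were. No member was called lower. The LPS libraries lay above the saline libraries without overlap for 5 members in MIA striatum (24.3% of all genes tested), 5 in control striatum (17.6%), 4 in the cortex of MIA offspring (14.2%) and 6 in that of controls (18%). The median log2 fold change of the members was 1.49 (MIA striatum), 2.38 (control striatum), 1.69 (MIA cortex) and 2.83 (control cortex), and the median of all genes lay between -0.056 and 0.043. Cxcl13 and Cxcl16 were called in all 4 comparisons, and Cxcl1 in control cortex only.

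**Figure D1:**
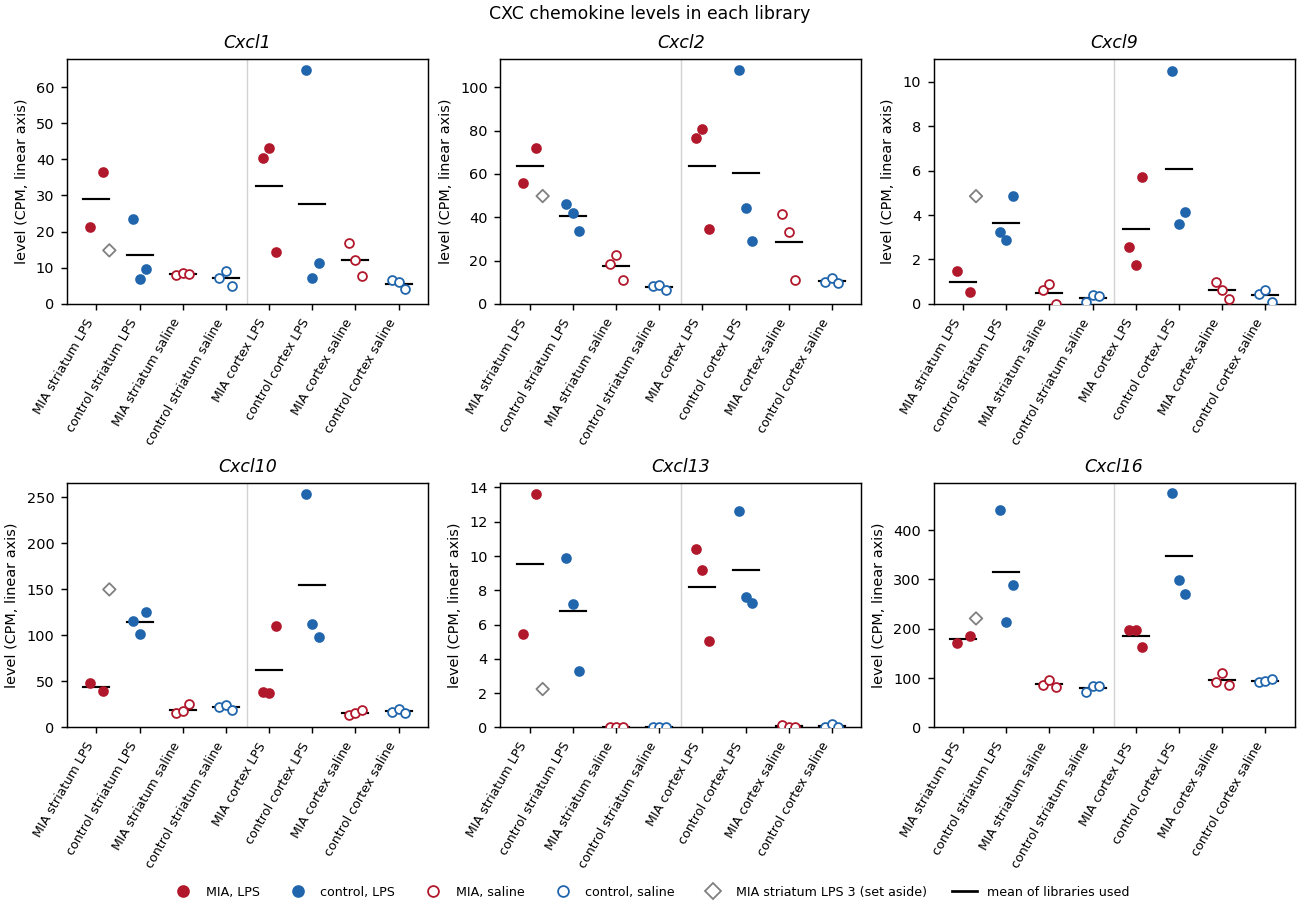
Level of each member in every library (CPM, linear axis from 0), by group, with LPS groups as filled and saline groups as open circles, MIA in red and control in blue, the mean as a black line, and the library set aside as a grey diamond. Cxcl10 and Cxcl16 lay lower in the LPS libraries of MIA offspring than in those of controls, except Cxcl10 in MIA cortex LPS replicate 3, at 110 CPM, and the library set aside, at 150 CPM of Cxcl10 and 221 CPM of Cxcl16.

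Cxcl1, a neutrophil attractant, had 21.2 and 36.6 CPM after LPS and 8.10, 8.42 and 8.28 CPM after saline in MIA striatum, and 23.5, 6.97 and 9.60 CPM after LPS and 7.20, 9.19 and 4.86 CPM after saline in control striatum. In cortex it had 40.3, 43.2 and 14.3 CPM after LPS and 16.7, 12.1 and 7.66 CPM after saline in MIA offspring, and 64.7, 7.05 and 11.2 CPM after LPS and 6.69, 6.04 and 3.98 CPM after saline in controls. The libraries of the treatments did not overlap in MIA striatum and control cortex, and overlapped in the other 2 comparisons. In control cortex Cxcl1 rose by 2.31 ± 0.64 on the log2 scale (SE, adjusted p = 0.0154). That call rested on control cortex LPS replicate 1 and saline replicate 3: the log2 fold change was 0.71 (adjusted p = 0.421) without LPS replicate 1 and 2.12 (adjusted p = 0.0713) without saline replicate 3. The log2 fold change was 1.81 ± 0.68 in MIA striatum (adjusted p = 0.105), 0.92 ± 0.62 in control striatum (adjusted p = 0.336) and 1.42 ± 0.62 in MIA cortex (adjusted p = 0.165), none of them called.

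Cxcl2, the neighbour of Cxcl1, was called in 3 of the 4 comparisons. In striatum it had 55.8 and 71.8 CPM after LPS and 18.5, 22.6 and 11.2 CPM after saline in MIA offspring, and 46.3, 42.1 and 33.5 CPM after LPS and 8.31, 8.60 and 6.60 CPM after saline in controls. In cortex it had 76.6, 80.6 and 34.4 CPM after LPS and 41.7, 33.3 and 11.0 CPM after saline in MIA offspring, and 108, 44.1 and 29.1 CPM after LPS and 10.2, 11.9 and 9.41 CPM after saline in controls. The treatments overlapped only in MIA cortex, where LPS replicate 3 lay below saline replicate 1. Cxcl2 rose by 1.87 ± 0.48 (adjusted p = 0.0149) in MIA striatum, by 2.38 ± 0.46 (adjusted p = 0.000881) in control striatum and by 2.52 ± 0.46 (adjusted p = 0.000549) in control cortex. In MIA cortex the value was 1.16 ± 0.44 (adjusted p = 0.104), and 1.21 (adjusted p = 0.011) with the replicate number as a block; without MIA cortex LPS replicate 3 it was 1.45 and was called (adjusted p = 0.0392). The call in MIA striatum was lost without MIA striatum LPS replicate 2 (adjusted p = 0.139) or MIA striatum saline replicate 3 (adjusted p = 0.0735).

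Cxcl9 was scarce. In striatum it had 1.47 and 0.543 CPM after LPS and 0.620, 0.887 and 0 CPM after saline in MIA offspring, and 3.24, 2.89 and 4.84 CPM after LPS and 0.0967, 0.383 and 0.335 CPM after saline in controls. In cortex it had 2.56, 1.77 and 5.71 CPM after LPS and 0.968, 0.616 and 0.228 CPM after saline in MIA offspring, and 10.5, 3.58 and 4.15 CPM after LPS and 0.460, 0.609 and 0.0936 CPM after saline in controls. Only in MIA striatum did LPS and saline libraries overlap. Cxcl9 rose by 3.71 ± 0.94 (adjusted p = 0.00745) in control striatum and by 3.96 ± 0.94 (adjusted p = 0.005) in control cortex. The value was 1.00 ± 0.95 in MIA striatum (adjusted p = 0.611) and 2.48 ± 0.88 in MIA cortex (adjusted p = 0.075). In MIA cortex it was called by DESeq2 (adjusted p = 0.0149) and by edgeR without a filter (adjusted p = 0.0485). It was called in 0 of 6 fits with 1 cortical library left out.

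Cxcl10, the other Cxcr3 ligand among the members, was far more abundant. In striatum it had 48.1 and 39.1 CPM after LPS and 15.2, 17.7 and 25.2 CPM after saline in MIA offspring, and 116, 102 and 125 CPM after LPS and 22.6, 24.5 and 19.1 CPM after saline in controls. In cortex it had 39.0, 37.1 and 110 CPM after LPS and 14.0, 15.3 and 19.2 CPM after saline in MIA offspring, and 254, 112 and 98.7 CPM after LPS and 16.8, 20.3 and 15.7 CPM after saline in controls. LPS and saline libraries did not overlap in any of the 4 comparisons. The mean after LPS was 2.25-fold that after saline in MIA striatum and 5.20-fold in control striatum. In cortex it was 3.85-fold in MIA offspring and 8.78-fold in controls. All but the value in MIA striatum (adjusted p = 0.0655) were called, with adjusted p-values of 9.74e-05 in control striatum and, in cortex, 0.00115 for MIA offspring and 7.02e-06 for controls. With the excluded library added back, the log2 fold change in MIA striatum was 2.03 and was called (adjusted p = 0.00482). Without that library, DESeq2 also called it (adjusted p = 0.0497). So did edgeR with the compared groups alone (adjusted p = 0.0283), no filter (adjusted p = 0.0195) or a replicate block (adjusted p = 0.0437), but not with DESeq2 size factors.

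Cxcl13 was at or near 0 in saline libraries and present in every LPS library. In striatum it had 5.43 and 13.6 CPM after LPS in MIA offspring and 9.90, 7.23 and 3.29 CPM after LPS in controls, against 0 counts in all 6 saline libraries. In cortex it had 10.4, 9.17 and 5.04 CPM after LPS and 0.168, 0 and 0 CPM after saline in MIA offspring, and 12.6, 7.62 and 7.26 CPM after LPS and 0, 0.203 and 0.0468 CPM after saline in controls. Against a floor of 3 counts per library, Cxcl13 was at least 81.6-fold higher after LPS in MIA striatum and at least 54.7-fold higher in control striatum. In cortex it rose by 7.17 ± 0.96 on the log2 scale (adjusted p = 9.6e-05) in MIA offspring and by 6.77 ± 0.93 (adjusted p = 7.52e-05) in controls. The adjusted p was 4.14e-05 in MIA striatum and 2.57e-05 in control striatum.

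Cxcl16 was the most abundant member and rose in all 4 comparisons. In striatum it had 172 and 186 CPM after LPS and 85.7, 95.9 and 81.6 CPM after saline in MIA offspring, and 441, 214 and 289 CPM after LPS and 71.8, 84.3 and 83.2 CPM after saline in controls. In cortex it had 197, 198 and 164 CPM after LPS and 92.3, 111 and 86.8 CPM after saline in MIA offspring, and 476, 299 and 271 CPM after LPS and 92.7, 94.2 and 98.3 CPM after saline in controls. LPS libraries lay above saline libraries throughout. The rise was 1.03 ± 0.23 on the log2 scale (adjusted p = 0.00617) in MIA striatum and 1.98 ± 0.22 (adjusted p = 2.1e-06) in control striatum. It was 0.94 ± 0.21 (adjusted p = 0.00537) in MIA cortex and 1.87 ± 0.22 (adjusted p = 4.19e-06) in control cortex. Without MIA striatum LPS replicate 2, the call in MIA striatum was lost (0.91, adjusted p = 0.0878).

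**Figure D2:**
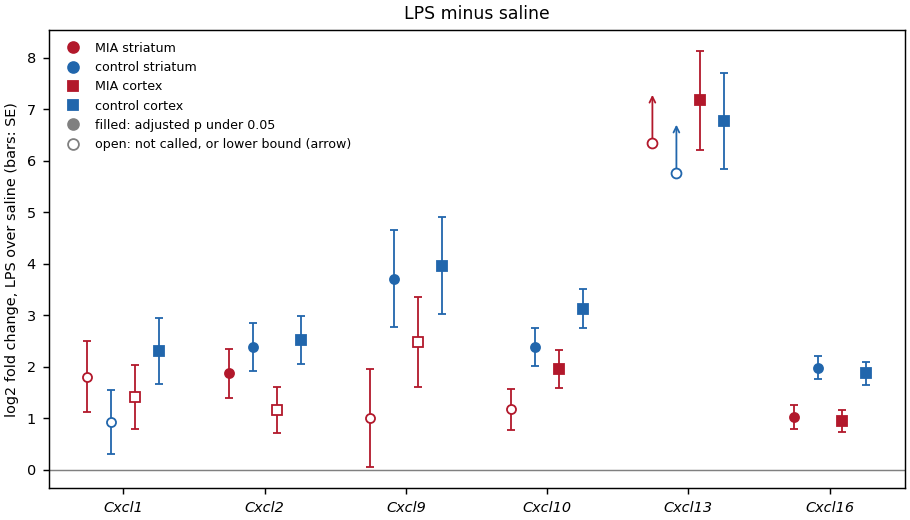
Log2 fold change of LPS over saline for each member in MIA (red) and control (blue) offspring, in striatum (circles) and cortex (squares), with bars for the SE; filled symbols were called, and open symbols with an arrow are lower bounds for Cxcl13 in striatum. Cxcl16 sat at 1.03 and 0.94 in MIA offspring and at 1.98 and 1.87 in controls.

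Markers of other myeloid cells also moved in the LPS comparisons. The summed level of 7 monocyte markers was 89.5 to 144 CPM after LPS and 11.9 to 19.9 CPM after saline in MIA striatum, and 102 to 242 CPM after LPS and 16.5 to 20.6 CPM after saline in control striatum. In cortex it was 125 to 152 CPM after LPS and 41.7 to 89.5 CPM after saline in MIA offspring, and 186 to 312 CPM after LPS and 27.9 to 45 CPM after saline in controls. Of the monocyte markers, 5 of 7 were called higher in MIA striatum, control striatum and control cortex and 3 of 7 in MIA cortex. Of 8 neutrophil markers, 3 were called higher in MIA striatum, 5 in control striatum, 0 in MIA cortex, where 2 were lower, and 3 in control cortex. Their summed level in MIA cortex was 545 to 803 CPM after LPS and 534 to 983 CPM after saline. Of 8 markers of border-associated macrophages, 5 were called higher in MIA striatum, where their summed level was 854 to 1180 CPM after LPS and 300 to 451 CPM after saline. In control striatum 1 was called higher and 1 lower, at 362 to 573 CPM after LPS and 369 to 471 CPM after saline. In cortex 1 was called higher in MIA offspring, and 1 higher and 1 lower in controls. Counts of 1 of 8 called higher are near the shares of all genes given above. None of these markers was at 0 in any group. Their part in the rises of the chemokines was not tested.

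After LPS, Cxcl10 and Cxcl16 had lower means in MIA than in control offspring in both regions, but 0 members were called by edgeR at the adjusted threshold; these 2 alone had an unadjusted p under 0.05. After LPS, Cxcl16 averaged 179 ± 10.2 CPM (SD, n = 2) in MIA striatum and 315 ± 115 CPM (SD, n = 3) in control striatum, and 186 ± 19.7 CPM in MIA cortex and 348 ± 111 CPM in control cortex (SD, n = 3 each). Markers of border-associated macrophages summed to 854 to 1180 CPM in MIA striatum and 362 to 573 CPM in control striatum after LPS. Of the 8, 6 were higher in MIA striatum without overlap, against 11.8% of all genes tested. Neutrophil markers summed to 545 to 803 CPM in MIA cortex and 853 to 1020 CPM in control cortex after LPS, and monocyte markers to 125 to 152 CPM in MIA cortex and 186 to 312 CPM in control cortex. None of these markers was called between MIA and control offspring, and their part in the chemokine differences was not tested. The Cxcl16 levels of the MIA libraries used lay below those of every control library in both regions, as was so for 2.15% of all genes tested. Control LPS replicate 1 had the highest Cxcl16 level in each region, at 441 CPM in striatum and 476 CPM in cortex. The log2 difference, MIA minus control, was -0.82 ± 0.24 in striatum (adjusted p = 0.252) and -0.90 ± 0.21 in cortex (adjusted p = 0.234). With each library left out in turn, it ran from -1.03 to -0.49 in striatum. In cortex it then ran from -1.06 to -0.61, with an adjusted p of up to 0.87. Without adjustment, a p under 0.05 was reached by 9.08% of genes in striatum and 4.88% in cortex, and at the adjusted threshold 0.146% and 0% of genes were called.

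Cxcl10 averaged 43.6 ± 6.36 CPM (SD, n = 2) after LPS in MIA striatum and 115 ± 11.7 CPM (SD, n = 3) in control striatum, with no overlap. In striatum 3 of 6 members (Cxcl9, Cxcl10 and Cxcl16) were lower without overlap, against 10.6% of genes, and in cortex 1 (Cxcl16), against 5.15%. In cortex Cxcl10 averaged 62.1 ± 41.6 CPM in MIA offspring and 155 ± 85.9 CPM in controls (SD, n = 3 each), and MIA cortex LPS replicate 3 lay within the control range. The log2 difference was -1.39 ± 0.41 in striatum (adjusted p = 0.252) and -1.31 ± 0.36 in cortex (adjusted p = 0.384). Leaving out that cortical library, whose own level goes against the difference, gave -2.01 with an adjusted p of 0.0025. It was the only one of 6 cortical libraries whose removal gave a call. Over the 6 removals the difference ran from -2.01 to -0.76, with an adjusted p of up to 0.96. With the library that the submitters excluded added back, the striatal difference of Cxcl10 was -0.54 (adjusted p = 0.771). That of Cxcl9 was then -0.68 (adjusted p = 0.873) and that of Cxcl16 -0.71 (adjusted p = 0.359). The excluded library had 4.85 CPM of Cxcl9, 150 CPM of Cxcl10 and 221 CPM of Cxcl16. The lowest levels in control striatum after LPS were 2.89, 102 and 214 CPM, so with that library none of the 3 was lower without overlap. DESeq2 called Cxcl10 in striatum (adjusted p = 0.0442) and Cxcl16 in striatum (adjusted p = 0.0483) and cortex (adjusted p = 0.0259).

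Of the other members, none of them called, Cxcl9 had lower means in MIA than in control offspring after LPS and Cxcl1 and Cxcl2 had higher ones. Cxcl9 differed by -1.86 ± 0.99 in striatum (adjusted p = 0.606) and by -0.85 ± 0.82 in cortex (adjusted p = 1). Cxcl2 differed by 0.65 ± 0.48 in striatum (adjusted p = 0.747), where MIA libraries lay above control libraries as for 11.8% of genes, and by 0.08 ± 0.43 in cortex (adjusted p = 1). Cxcl1 differed by 1.11 ± 0.67 in striatum (adjusted p = 0.654) and 0.24 ± 0.61 in cortex (adjusted p = 1). Cxcl13 differed by 0.49 ± 0.71 in striatum (adjusted p = 0.909) and -0.16 ± 0.64 in cortex (adjusted p = 1).

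In saline-treated offspring, no member was called between MIA and control in either region, and neither was any other gene (0%); Cxcl2 was below an unadjusted p of 0.05 in both regions, and DESeq2 called 0 members. Without adjustment, 4.91% of genes in striatum and 5.37% in cortex had a p under 0.05. Cxcl2 had the smallest p of the members. It averaged 17.4 ± 5.75 CPM in MIA striatum and 7.84 ± 1.08 CPM in control striatum, and 28.7 ± 15.8 CPM in MIA cortex and 10.5 ± 1.28 CPM in control cortex (SD, n = 3 each). The MIA libraries lay above the control libraries in striatum, as for 6.58% of genes, and overlapped them in cortex, where MIA saline replicate 3, at 11.0 CPM, lay within the control range. The log2 difference was 1.15 ± 0.45 in striatum (adjusted p = 0.918) and 1.45 ± 0.45 in cortex (adjusted p = 0.906). MIA cortex saline replicate 1, which had the highest resting Cxcl2, also had the highest summed level of neutrophil markers of its group, 983 CPM. Replicates 2 and 3 had 534 and 578 CPM of these markers, and 33.3 and 11.0 CPM of Cxcl2. In saline-treated striatum these markers summed to 293 to 362 CPM in MIA offspring and 297 to 331 CPM in controls. The part of these cells in the Cxcl2 values was not tested. Cxcl1 differed by 0.22 ± 0.62 in striatum and 1.12 ± 0.63 in cortex, where its MIA libraries lay above the control libraries as for 7.04% of genes, and Cxcl16 by 0.14 ± 0.21 and 0.03 ± 0.21. Cxcl10 differed by -0.19 ± 0.36 in striatum and -0.12 ± 0.36 in cortex. The adjusted p was at least 0.949 for all of these.

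**Figure D3:**
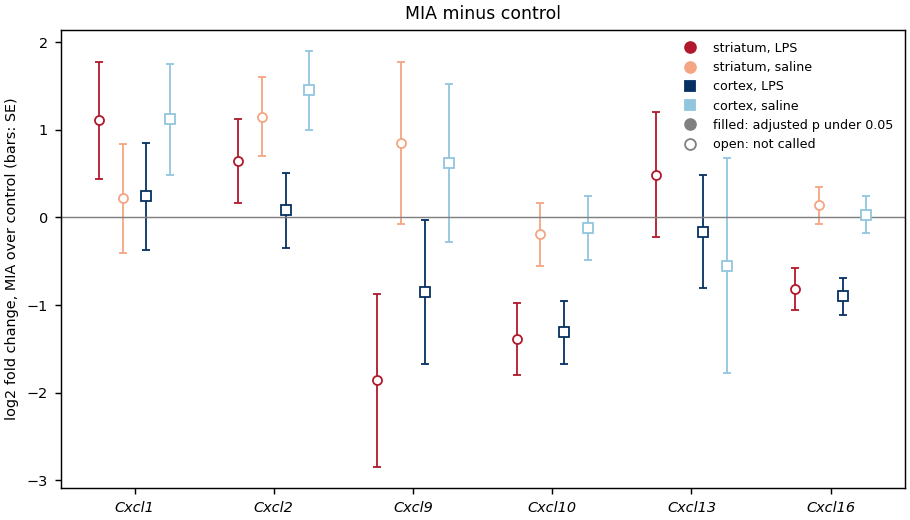
Log2 fold change of MIA over control for each member after LPS (dark) and after saline (light), in striatum (circles) and cortex (squares), with bars for the SE; all symbols are open because none was called, and Cxcl13 in saline-treated striatum, at 0 in both groups, is not drawn. Cxcl10 and Cxcl16 lie below 0 after LPS in both regions and near 0 after saline.

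The LPS effect in MIA minus that in control offspring, averaged over both regions, asks directly whether the responses differ. It was -0.94 ± 0.22 for Cxcl16 (adjusted p = 0.117), -1.20 ± 0.37 for Cxcl10 (adjusted p = 0.278) and -2.09 ± 0.90 for Cxcl9 (adjusted p = 0.475). It was -0.94 ± 0.46 for Cxcl2 (adjusted p = 0.543). No member was called, where 0.0175% of genes were and 9.32% had an unadjusted p under 0.05. For Cxcl1 the estimate was 0.00, with 0.89 ± 0.92 in striatum and -0.89 ± 0.87 in cortex. For Cxcl16 the values of the regions were close, -0.95 ± 0.32 in striatum and -0.93 ± 0.30 in cortex, and likewise for Cxcl10, -1.21 ± 0.54 and -1.19 ± 0.51. Cxcl10 was called without MIA cortex LPS replicate 3 (-1.55, adjusted p = 0.011), and Cxcl16 without control striatum LPS replicate 2 (-1.05, adjusted p = 0.0329) and by DESeq2 (adjusted p = 0.0127). No member was called when any other library of a group of 3 was left out. The same held with the replicate block and with the excluded library added back. No label ties an offspring to its litter, so prenatal history and litter cannot be told apart.

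No member was called between striatum and cortex. In the 4 comparisons of striatum with cortex (MIA after LPS, control after LPS, MIA at rest and control at rest), 0 of 6 members were called, where 0.0117%, 0.0175%, 0.0817% and 0.502% of all genes were. At an unadjusted p under 0.05 stood only Cxcl13 in controls at rest, which had 0 counts in striatum, and DESeq2 called 0. The largest differences among the members detected in both regions were -1.74 ± 0.98 for Cxcl9 in MIA offspring after LPS and -1.05 ± 0.62 for Cxcl1 in control offspring after LPS (both adjusted p = 1). The 95% interval of the striatum minus cortex difference of Cxcl16 ran from -0.56 to 0.44 on the log2 scale in MIA offspring after LPS and from -0.59 to 0.30 in controls after LPS. The LPS effect did not differ detectably between regions either, with 0 members called in MIA and in control offspring and 0% of genes called, 0 members at an unadjusted p under 0.05, and 0 by DESeq2.

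Per kilobase of exon, the order of the member means differed between treatments and, for Cxcl2 and Cxcl10, between prenatal groups. Differences in order were not tested. Cxcl16 came first in all 8 groups. After LPS it had 59.2 CPM per kb in the striatum of MIA offspring and 104 in that of controls, and in cortex 61.7 in MIA offspring and 115 in controls. In control offspring after LPS, Cxcl10 came second with 50.9 CPM per kb in striatum and 68.6 in cortex, and Cxcl2 came next with 19.7 and 29.2. In MIA offspring after LPS, Cxcl2 came second with 30.8 CPM per kb in striatum and 30.9 in cortex, and Cxcl10 came next with 19.4 and 27.6. The ranges of Cxcl2 and Cxcl10 did not overlap in control striatum or MIA striatum, and overlapped in the cortex of both prenatal groups. In the excluded MIA striatum LPS library, Cxcl10 lay above Cxcl2 (150 against 49.8 CPM). After saline, Cxcl2 was already second in MIA cortex, at 13.9 CPM per kb against 7.16 for Cxcl10, with overlapping ranges. Cxcl10 was second in the other saline groups. Cxcl9 was last in all 4 LPS groups, at 0.333 to 2.02 CPM per kb, and Cxcl13 was last in all 4 saline groups.

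The patterns across the 23 libraries were compared by the root mean square difference of log2 CPM, each gene centred on its own mean. Among the members the closest pair was Cxcl10 and Cxcl16 (0.60), then Cxcl1 and Cxcl2 (0.64). Cxcl13 stood farthest from the rest (2.05 to 2.57). The genes were not scaled, so the measure also reflects how widely each one varied. The SD of log2 CPM was 3.24 for Cxcl13, 1.81 for Cxcl9, 1.27 for Cxcl10, 1.22 for Cxcl2, 1.08 for Cxcl1 and 0.84 for Cxcl16. Among 8904 candidate genes, those nearest to Cxcl10 were Evi2b (0.39), AW112010 (0.41) and Phf11b (0.41), and those nearest to Cxcl16 were Mrps18b (0.24), Ddx39 (0.25) and Tmem106a (0.26). Cxcl2 was nearest to Rbm3 (0.51), Tuba1c (0.54) and Cst7 (0.56), and Cxcl1 to Ifrd1 (0.64), Mt2 (0.66) and Rnd1 (0.67). Cxcl9 was nearest to Cd69 (0.79), Il18bp (0.79) and AW112010 (0.87), and Cxcl13 to Pilrb1 (0.75), Cd244a (0.78) and Trem1 (0.86). The libraries share their treatments, so a likeness describes these samples alone.

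Of the receptors of these chemokines, Cxcr2 was called higher and Cxcr3 lower after LPS, and Cxcr5 and Cxcr6 were not called. Cxcr2, the receptor of Cxcl1 and Cxcl2, was called higher after LPS in all 4 comparisons, at 15.1 CPM after LPS and 0.258 CPM after saline in MIA striatum and 20.6 CPM after LPS and 1.05 CPM after saline in control cortex. Cxcr3, the receptor of Cxcl9 and Cxcl10, was called lower in all 4, at 0.636 CPM after LPS and 4.04 CPM after saline in MIA striatum and 1.52 CPM after LPS and 6.75 CPM after saline in control cortex. Ackr1, an atypical receptor that binds several CXC and CC chemokines without G protein signalling, was called higher in all 4, at 64.7 CPM after LPS and 0.302 CPM after saline in MIA striatum and 68.2 CPM after LPS and 0.0713 CPM after saline in control cortex. Cxcr5 and Cxcr6, the receptors of Cxcl13 and Cxcl16, reached at most 1.22 and 0.778 CPM in the libraries used. Cxcr4 was not called, Ackr3 was called lower in control striatum only, and Cxcr1 was not tested. Monocyte markers were called higher in all 4 comparisons as well, and neutrophil markers in all but MIA cortex, where 2 of 8 were lower; their part in the Cxcr2 rise was not tested.

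Of the 9 other CXC ligands, 5 were tested. Cxcl3, close kin of Cxcl1 and Cxcl2, had 1.45, 0.206 and 0.605 CPM after LPS in control cortex, against 0 counts in all 3 saline libraries, and was called (adjusted p = 0.0368). Cxcl12, the Cxcr4 ligand that stromal and endothelial cells make, fell in control striatum to 10.4 CPM after LPS, against 87.2 CPM after saline (-3.06 ± 0.52, adjusted p = 0.000244). There the summed level of 8 endothelial markers was 520 to 841 CPM after LPS and 789 to 1870 CPM after saline. Of the 8, 4 were called lower, where 20.9% of all genes were called in either direction. The part of endothelial cells in the Cxcl12 value was not tested. Mean Cxcl12 was also lower after LPS elsewhere, without a call. It was 16.8 against 51.4 CPM in MIA striatum, 18.0 against 42.4 CPM in MIA cortex and 12.5 against 29.9 CPM in control cortex. Pf4, a platelet and macrophage chemokine, fell in MIA cortex to 36.5 CPM after LPS, against 79.0 CPM after saline (-1.12 ± 0.35, adjusted p = 0.0418). Its mean was also lower, without a call, in control cortex (31.3 against 54.6 CPM), control striatum (12.8 against 23.5 CPM) and MIA striatum (33.5 against 37.2 CPM). Cxcl11 and Cxcl14 were not called. Cxcl5, Cxcl15, Cxcl17 and Ppbp were not tested. No other CXC ligand or receptor was called between MIA and control offspring.

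**Figure D4:**
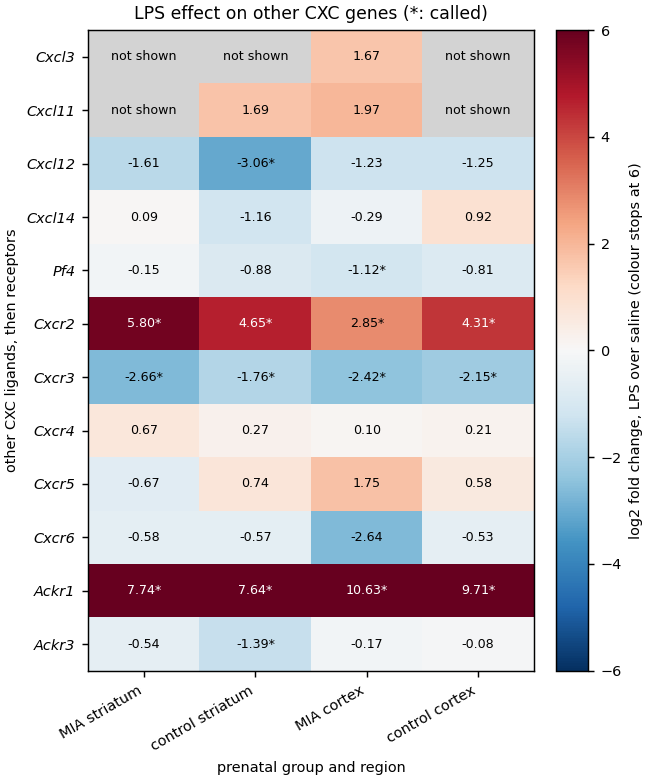
Log2 fold change of LPS over saline for the other CXC ligands and the receptors tested, as a colour grid with the value in each cell, an asterisk where called, and "not shown" where a group held 3 counts or fewer. Cxcr2 and Ackr1 were higher and Cxcr3 lower after LPS in all 4 columns.

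Some interferon and NF-kB signalling genes were called with LPS, and their counts, like those of the enzymes and decay factors that follow, stand beside the share of all genes; no list was tested against the other genes. Of all genes tested, 10.2% were called in either direction in the striatum of MIA offspring and 20.9% in that of controls, with 11.9% in the cortex of MIA offspring and 18.2% in that of controls. Of 15 tested interferon signalling genes, 2 were called higher in MIA striatum, 6 in control striatum, 2 in MIA cortex, where Irf8 was lower, and 4 in control cortex. Irf7, the transcription factor that amplifies type I interferon, was called higher in all 4, by 1.98 ± 0.60 on the log2 scale in MIA striatum and 3.97 ± 0.60 in control cortex. Irf9, the DNA-binding subunit of the complex that binds ISRE, was the one gene of the list called between MIA and control offspring, at 68.3 CPM in MIA striatum and 149 CPM in control striatum after LPS (-1.12 ± 0.19, adjusted p = 0.0236). In cortex it stood at 94.3 CPM in MIA offspring and 156 CPM in controls (-0.73 ± 0.16, adjusted p = 0.207). The difference of the LPS effects over both regions was -0.76 ± 0.17 for Irf9 (adjusted p = 0.0937) and -1.48 ± 0.56 for Irf7 (adjusted p = 0.394).

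Of 14 NF-kB signalling genes, 2 were called higher and 1 lower in MIA striatum, 3 and 1 in control striatum, 2 and 0 in MIA cortex, and 7 and 1 in control cortex. Nfkb2, a subunit precursor, was higher in all 4, by 1.05 ± 0.28 in MIA striatum and 1.52 ± 0.26 in control cortex. Bcl3 and Nfkbiz, atypical IkB proteins, rose by 3.45 ± 0.69 and 0.96 ± 0.19 in control cortex. None of the 14 was called between MIA and control offspring or for the difference of the LPS effects, where the values were -0.64 ± 0.24 for the inhibitor Nfkbia (adjusted p = 0.385) and -1.61 ± 0.65 for Bcl3 (adjusted p = 0.435).

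Of 7 enzymes that cleave or shed chemokines, 2 were called higher and 1 lower in MIA striatum, 2 and 0 in control striatum, 0 and 1 in MIA cortex, and 2 and 2 in control cortex. Mmp9 was called higher in MIA striatum, control striatum and control cortex, and by 1.98 ± 0.49 in control cortex (adjusted p = 0.00647). Mmp2 was called lower in MIA striatum, MIA cortex and control cortex. Mmp12 fell in control cortex to 0.178 CPM after LPS, against 1.73 CPM after saline. Adam10 and Adam17, proteases that can shed Cxcl16, had differences of the LPS effects of 0.37 ± 0.23 (adjusted p = 0.663) and 0.27 ± 0.24 (adjusted p = 0.79). None of 6 factors that control mRNA decay, including that of AU-rich mRNAs such as those of Cxcl1 and Cxcl2, was called in any LPS comparison. Among them the differences of the LPS effects were -0.66 ± 0.26 for Zfp36 (adjusted p = 0.426) and -0.84 ± 0.40 for Khsrp (adjusted p = 0.535).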

How the data were processed

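Expected counts per gene and library (RSEM) for 24 libraries were deposited by the authors; STAR, RSEM and DESeq2 are named per the submitters' processing notes, and versions and genome build are not given in the sources used here. Of all values, 6.92% were not whole, and counts were rounded. Of 55487 identifiers, 55141 matched a symbol. Genes were filtered (filterByExpr over 8 groups, minimum count 10, minimum total 15), scaled with TMM and tested in R 4.3.3 with edgeR 4.0.16 (quasi-likelihood, 1 term per group, 23 libraries, 15 residual degrees of freedom). Two-sided p-values were adjusted over all 17139 genes in each of 17 comparisons by Benjamini and Hochberg, and called under 0.05. Fold changes carry the SE implied by the F statistic; CPM levels are TMM-scaled, and log2 CPM used a prior count of 2. Exon lengths came from GENCODE M21. The model was tested on simulated data.

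The members and lists were chosen with earlier results of these data known. Named were the members, all other CXC ligands and receptors, up to 3 genes per pathway list with the smallest adjusted p for the difference of LPS effects and for LPS in control cortex, and the 3 genes nearest to each member in pattern among tested genes of at least 10 CPM in a group; Irf8, outside this rule, was named after its values were seen. A gene that this rule names is not reported here. The labels do not say that replicates are separate animals, so the p-values cover only spread among these libraries, which may be technical. Same-numbered libraries deviated together in all 3 pairs (correlation 0.14, 0.12 and 0.31) in the MIA cortex LPS comparison and (0.28, 0.28 and 0.31) between striatum and cortex of controls after LPS, and the pairing is taken from the data; the labels do not state it. Alternatives were DESeq2 1.42.0, DESeq2 size factors, no filter, the compared groups alone, a replicate block, the excluded library added back, and each library left out.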

Additional observations from a re-analysis of the deposited data

Results flagged for a closer look

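The library that the submitters excluded, MIA striatum LPS replicate 3, enters none of the comparisons, and all 6 members were above the range of the MIA striatum saline libraries in it. It had 14.8 CPM of Cxcl1, against at most 8.42 CPM in MIA striatum saline libraries, and 49.8 CPM of Cxcl2, against at most 22.6 CPM. Cxcl9 had 4.85 CPM, against at most 0.887 CPM, and Cxcl13 had 2.24 CPM, against 0 counts in all saline libraries of the group. Cxcl10 was at 150 CPM and Cxcl16 at 221 CPM, against at most 25.2 and 95.9 CPM after saline. Set against the other 2 LPS libraries of MIA striatum, Cxcl9, Cxcl10 and Cxcl16 were higher in the excluded library and Cxcl1, Cxcl2 and Cxcl13 were lower: Cxcl10 had 39.1 to 48.1 CPM in those libraries and Cxcl16 had 172 to 186 CPM.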

How the results depend on the processing

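Of 1487 member values recomputed under the alternatives, 1455 kept their direction and side of the threshold or stayed uncalled, 7 lost a call, 25 gained one, and none with a call reversed; 80 uncalled values changed sign. In MIA cortex, 5 members were called for LPS by DESeq2, without a filter, and without MIA cortex LPS replicate 3 and control cortex LPS replicate 1 (a pair chosen after seeing the data, partly on the members' own levels, so counts without these 2 libraries support nothing), and 3 to 4 with a library left out. In MIA striatum 5 were called with the compared groups alone and without a filter, and 1 to 3 with a library left out (1 without MIA striatum LPS replicate 2). Between MIA and control after LPS, DESeq2 called 2 in striatum and 1 in cortex, and 1 was called in cortex without the 2 libraries; leaving out a library gave 0 to 1 in cortex. For the difference of LPS effects 1 was called by DESeq2, without a filter and without the 2 libraries, and 0 to 1 with a library left out. With the replicate block, 4 members were called for LPS in MIA cortex and 4 in MIA striatum, where Cxcl10 joined (adjusted p = 0.0437); other counts did not change. The causes were not tested. Cxcl9 and resting Cxcl13 are limited by low counts, and 3 libraries a group limit the precision.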
